A study of Mus musculus with 18 samples.

Results

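The genes described here are effector genes that type I interferon is known to switch on, measured in mouse ileum after bone marrow transplantation. A set of 39 gene symbols was taken, and a gene entered when the array annotation gave a probe set exactly that symbol, with the probe set of highest mean over the 18 arrays where a gene had several. This gave 38 of the 39 genes, out of 22180 genes tested in all. Dtx3l was left out because its probe set carries several symbols. The rule itself uses no difference between groups, and only Ifi35 and Lgals3bp had several probe sets to pick from, but the symbols were listed with earlier results of these arrays known.

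The study measured RNA of the ileum in 18 mice, with 1 array per mouse, 21 days after transplant. All recipients were B10.BR mice aged 8 to 12 weeks that had 11 Gy of total body irradiation and then 5000000 T cell-depleted marrow cells from C57Bl/6 donors. Of these, 4 vehicle mice and 5 mice given indole-3-carboxaldehyde (ICA) got marrow only, and are called marrow-only mice below. A further 4 vehicle mice and 5 ICA mice also got 2000000 purified allogeneic T cells, which per the labels lead to graft-versus-host disease, and are called T cell mice. ICA was gavaged daily at 150 mg/kg from the day before transplant until harvest, and the vehicle was a mixture of DMSO, PEG400 and citric acid. ICA is an indole that gut bacteria can make from tryptophan, and it binds the aryl hydrocarbon receptor. Every group carries the irradiation and a marrow graft from another strain, so none is an untreated ileum. The arrays read whole pieces of ileum, in which recipient tissue and donor blood cells are mixed.

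Type I interferons are cytokines that nearly every cell can sense through the receptor of Ifnar1 and Ifnar2. The receptor activates a transcription factor complex that includes Stat2 and Irf9, which binds a DNA element with a repeated GAAA core and turns on many genes. Their products block viral entry, RNA translation and particle release, and some, such as Usp18, shut the signal off again. In the gut the type III interferons (lambda) drive much the same genes in epithelial cells, so the level of these genes does not by itself say which interferon acted.

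The levels below are RMA log2 values, so that a difference of 1 is a 2-fold change. The median of an array over all probe sets lay between 6.47 and 6.51, and the correlation between arrays over the 22180 genes was 0.978 to 0.993. The ileum was recognisable in every mouse: the mean of 13 enterocyte markers lay between 10.78 and 11.66, and the bile acid-binding protein Fabp6, a marker of the ileum, averaged 12.20 ± 0.36 in vehicle marrow-only mice and 12.49 ± 0.16 in ICA T cell mice (SD). In an earlier analysis of these data 3 arrays stood apart, namely that of marrow-only vehicle mouse 3, of marrow-only mouse 1 under ICA and of T cell mouse 1 under ICA. The labels give no reason for this. Their median correlation with the other arrays was 0.986 each, and was lower for some arrays that were kept, such as marrow-only ICA mouse 2 (0.984). T cell ICA mouse 1 had the lowest upper quartile of the arrays, 7.92. Both marrow-only arrays had the highest mean of the 38 genes within their groups, so leaving them out is not neutral for these genes.

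The promoters are shown first because the core of the interferon-stimulated response element can be read in them. RefSeq (GRCm38.p6) gave a window from 250 bases before to 50 bases after the start for 30 of the 39 genes. The motif searched was GAAANNGAAA on both strands (TTTCNNTTTC on the other), with overlapping matches counted. It was found in 12 of these 30 genes (40.0%), namely Isg15, Ifit1, Ifit3, Oas1g, Oas3, Rsad2, Ddx60, Bst2, Slfn5, Slfn8, Eif2ak2 and Trim21. Of all 27025 genes with such a window, 3.99% had a match. The 4 promoters below were chosen because they carry at least 2 matches each, and because Ifit3, unlike the other 3, hardly differed between the groups. The 250 bases before the start are printed 5′ to 3′ on the gene's strand, with the matches in capitals.
Isg15: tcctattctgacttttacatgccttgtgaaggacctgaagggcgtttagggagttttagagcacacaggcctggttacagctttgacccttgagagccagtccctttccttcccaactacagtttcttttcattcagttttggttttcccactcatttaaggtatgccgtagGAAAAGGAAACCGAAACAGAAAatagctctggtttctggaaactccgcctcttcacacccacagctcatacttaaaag
Ifit1: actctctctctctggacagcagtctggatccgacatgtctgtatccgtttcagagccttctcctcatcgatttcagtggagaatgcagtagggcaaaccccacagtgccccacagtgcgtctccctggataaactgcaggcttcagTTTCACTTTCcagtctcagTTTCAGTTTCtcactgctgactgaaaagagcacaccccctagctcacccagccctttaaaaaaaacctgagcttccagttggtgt
Oas1g: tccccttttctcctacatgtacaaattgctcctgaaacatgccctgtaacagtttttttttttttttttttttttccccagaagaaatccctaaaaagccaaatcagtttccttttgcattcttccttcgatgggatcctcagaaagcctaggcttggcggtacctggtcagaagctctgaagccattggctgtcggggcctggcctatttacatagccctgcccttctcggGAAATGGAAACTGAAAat
Ifit3: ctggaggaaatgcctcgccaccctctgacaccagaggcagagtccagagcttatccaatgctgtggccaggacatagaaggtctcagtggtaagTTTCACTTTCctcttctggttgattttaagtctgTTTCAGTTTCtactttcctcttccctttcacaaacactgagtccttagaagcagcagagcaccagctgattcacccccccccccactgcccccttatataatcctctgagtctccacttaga
The Isg15 sequence lies at chr4:156200819-156201068 on the minus strand, Ifit1 at chr19:34640639-34640888 on the plus strand, Oas1g at chr5:120887614-120887863 on the minus strand and Ifit3 at chr19:34583279-34583528 on the plus strand. Isg15 carried 3 matches, which overlap in a single run of capitals. Ifit1 and Ifit3 carried 2 separate matches each, and the 2 matches of Oas1g overlap. Between ICA and vehicle in T cell mice, the median difference was 0.87 over the 12 genes with a match (0.12 to 1.18) and 0.43 over the 17 measured genes with a window and no match (0.18 to 1.05). The ranges overlap almost fully. The 9 genes without a window enter neither median, among them Oas2, Usp18 and Mx2, which had the largest differences of the set (1.72, 1.44 and 1.35). The others are Mx1, Parp9, Parp14, Zbp1, Rtp4 and Tor3a. A match describes these letters and is no shown binding site.

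The interferon genes were highest in T cell mice given ICA. The mean of the 38 genes in each mouse was 9.07, 8.70, 9.61 and 8.87 in the vehicle marrow-only mice (group mean 9.06 ± 0.40, SD, n = 4). It was 9.58, 8.88, 9.19, 9.11 and 8.97 in the ICA marrow-only mice (9.15 ± 0.27, n = 5). The vehicle T cell mice read 8.66, 9.02, 9.04 and 8.81 (8.88 ± 0.18, n = 4) and the ICA T cell mice 9.41, 9.20, 9.56, 9.65 and 9.96 (9.56 ± 0.29, n = 5). Every ICA T cell mouse lay above every vehicle T cell mouse, whereas marrow-only vehicle mouse 3 and marrow-only ICA mouse 1 reached into the range of the ICA T cell mice. The difference of ICA from vehicle was 0.67 with T cells and 0.09 without, against a pooled SD between mice of 0.29. The value without T cells rests on single mice: it was -0.03 without marrow-only vehicle mouse 2, -0.02 without marrow-only ICA mouse 1 and 0.27 without marrow-only vehicle mouse 3. Because the ileum was measured whole, more cells that express these genes and more RNA per cell cannot be told apart.

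**Figure D1:**
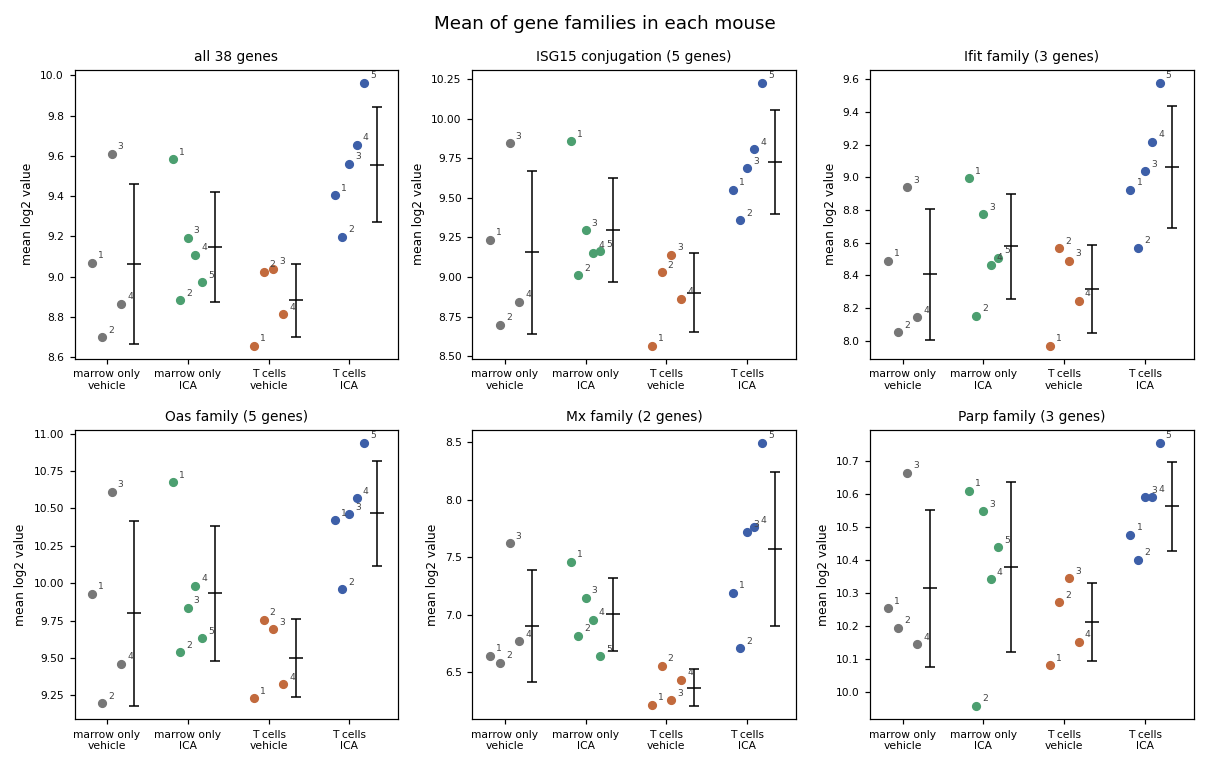
Mean log2 value of all 38 genes and of the 5 named families in each mouse, by group, with dots numbered by mouse and bars for the group mean ± SD (4 or 5 mice). The 5 T cell mice given ICA lie at 9.20 to 9.96 for all genes, above the 4 T cell mice given vehicle at 8.66 to 9.04, while the marrow-only groups spread from 8.70 to 9.61.

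Gene by gene, no member passed the test for ICA against vehicle in T cell mice. Limma's moderated test with Benjamini-Hochberg adjustment over all 22180 genes called 0 of the 38 members at an adjusted p under 0.05, where 0.0135% of all genes (3 genes, each lower) were called. The adjusted p of the members ran from 0.125 for Mx2 to 0.872 for Ifit3. All 38 differences were above 0, as were 46.6% of all genes, and their median was 0.62 against -0.01 over all genes. At an unadjusted p under 0.05, 32 of the 38 members were higher, where 3.06% of all genes were. In 23 of the 38, every ICA mouse read above every vehicle mouse, where this held for 1.11% of all genes. Without the 3 arrays that stood apart, 12 members were called (Isg15, Usp18, Herc6, Oas1g, Oas2, Mx2, Znfx1, Rsad2, Bst2, Slfn5, Xaf1 and Helz2), out of 39 genes called in all, and 24 did not overlap (2.94% of all genes were higher without overlap then). When only these T cell groups were fitted, 9 members were called (Usp18, Herc6, Oas1g, Oas2, Oasl2, Mx2, Slfn5, Xaf1 and Helz2), out of 49 genes called in all, and leaving out marrow-only vehicle mouse 3 or T cell ICA mouse 2 called 1, Mx2. The members share mice and move together, so these counts do not describe independent genes.

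In marrow-only mice, ICA and vehicle groups overlapped for all 38 genes, while 1.35% of all genes were higher without overlap. Without the 3 arrays that stood apart, 3 of the 38 were higher without overlap, when 4.96% of all genes were. Limma called 0 members (0.00451% of all genes were called), 1 member was higher at an unadjusted p under 0.05 (4.24% of all genes were), 30 were above 0 (53.5% of all genes), and the median difference was 0.08 against 0.01 over all genes. That member was Zbp1, a sensor of Z-form nucleic acids, at 0.31 (95% interval 0.03 to 0.58, adjusted p = 0.638). The test of whether ICA acted differently with and without T cells, the interaction, called 0 members and 0% of all genes. At an unadjusted p under 0.05, 21 members were higher in it, against 2.74% of all genes, and 37 of the 38 interaction terms were above 0, against 44.8% of all genes, with a median of 0.55. The smallest adjusted p was 0.677, for Samd9l.

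**Figure D2:**
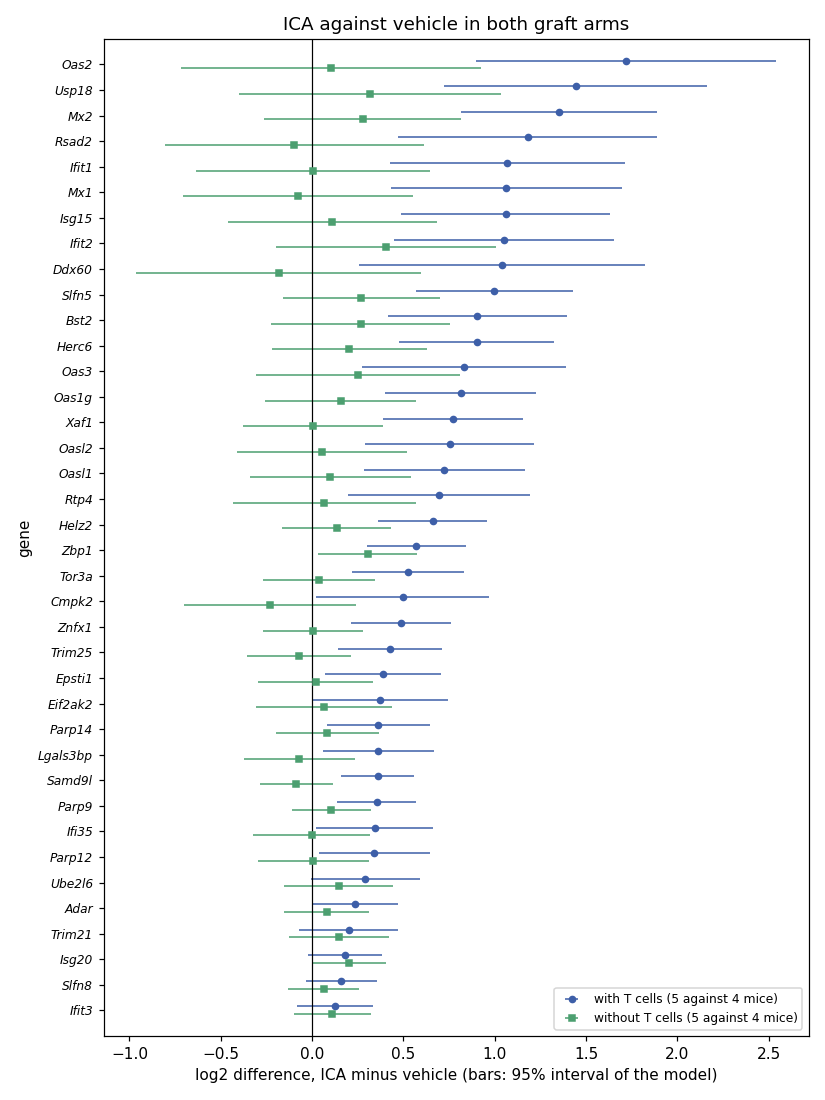
Log2 difference of ICA from vehicle for each of the 38 genes, with T cells (blue circles) and without (green squares), with 95% intervals of the limma model as bars and genes ordered by the difference with T cells. With T cells the differences run from 0.12 for Ifit3 to 1.72 for Oas2, and without T cells from -0.23 to 0.40.

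T cells against marrow only gave opposite signs under vehicle and under ICA. Both comparisons share their T cell and marrow groups with the ICA comparisons above, so they are no separate evidence. Under vehicle, 31 of the 38 members lay below marrow-only mice, with a median of -0.12, while 51.9% of all genes lay above 0, and limma called 0 (1.47% of all genes were called). At an unadjusted p under 0.05, 3 were lower, against 5.42% of all genes, namely Zbp1 at -0.42, Helz2 at -0.40 and Mx2 at -0.71. Zbp1 was also the 1 member whose groups did not overlap (4.21% of all genes did not, in the lower direction). The mean difference over the 38 genes was -0.18, and 0.01 when marrow-only vehicle mouse 3 was left out, so its sign rests on that mouse.

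Under ICA, 3 members rose with T cells: Cmpk2, Xaf1 and Samd9l. They were called at an adjusted p under 0.05 where 3.12% of all genes were, and 1.05% in the higher direction. In all, 36 of 38 members were above 0, as were 47.6% of all genes, with a median of 0.35, and 17 were higher at an unadjusted p under 0.05 (7.43% of all genes). The count of 3 depended on single mice. It was 11 without marrow-only ICA mouse 1, where the genes called in all went from 693 to 1373, 1 without T cell ICA mouse 1, and 0 without any of marrow-only ICA mice 2, 3, 4 and 5 or T cell ICA mice 3, 4 and 5. Without the 3 arrays that stood apart it was 20, out of 1515 genes called in all, and 13 members were then higher without overlap in place of 1 (5.87% of all genes in place of 1.16%). In the same comparison all 7 smooth muscle markers, 2 T cell markers and 2 macrophage markers were called higher, and 3 B and plasma cell and 2 Paneth cell markers lower.

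Mouse by mouse, the same few animals led most genes. T cell ICA mouse 5 was the highest of all 18 mice in 32 of the 38 genes. Marrow-only vehicle mouse 3 was the highest of its group in 35 genes and marrow-only ICA mouse 1 in 29. At the lower end, T cell vehicle mouse 1 was the lowest of all 18 in 14 genes and marrow-only vehicle mouse 2 in 11. T cell ICA mouse 2 was the lowest of its group in 28 genes. In vehicle T cell mice the highest place was split between mouse 3 (21 genes) and mouse 2 (14 genes). The order of the mice within a group was thus shared by most of the genes, but not by all. The correlation of a gene with the mean of the other members within groups ran from -0.41 for Slfn8 and -0.04 for Isg20 to 0.97 for Usp18.

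**Figure D3:**
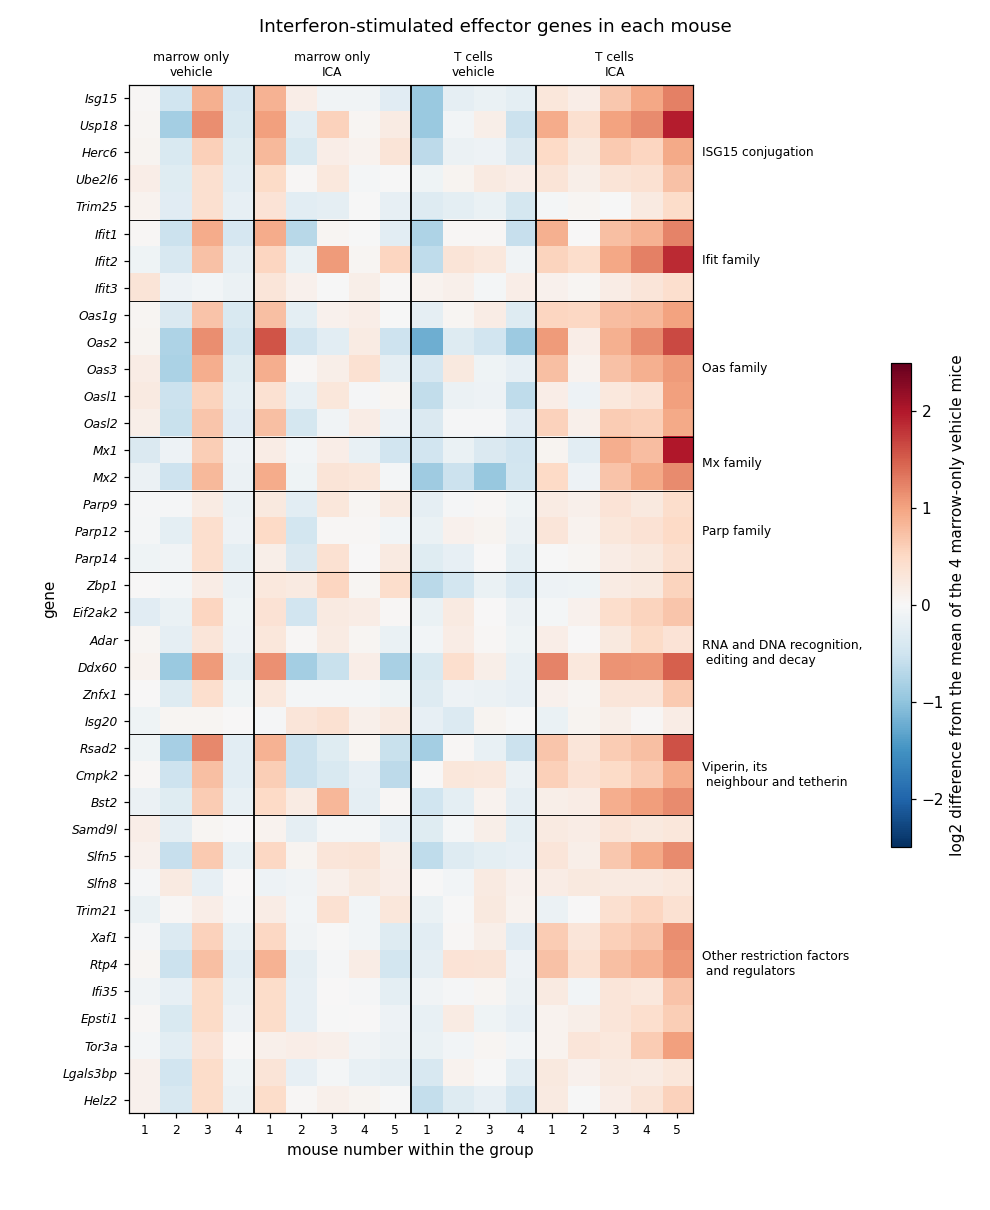
Log2 difference of each gene (rows, by role) in each of the 18 mice (columns, by group) from the mean of the 4 vehicle marrow-only mice. Mouse 5 of the ICA T cell group is the reddest column, being the highest of 18 in 32 of 38 genes, and mouse 3 and mouse 1 stand out in the marrow-only vehicle and ICA groups.

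ISG15 is a small ubiquitin-like protein that is secreted and is also attached to other proteins. The 5 genes of its conjugation cycle were measured, and limma called 0 of them in any comparison, while 4 were higher with ICA in T cell mice at an unadjusted p under 0.05 (3.06% of all genes). Isg15 itself read 6.27, 6.96, 7.03 and 6.94 in vehicle T cell mice and 7.47, 7.36, 7.87, 8.15 and 8.45 in ICA T cell mice. Isg15 in marrow-only mice read 7.22, 6.70, 8.08 and 6.77 under vehicle and 8.06, 7.35, 7.10, 7.11 and 6.91 under ICA. All ICA T cell mice were above all vehicle T cell mice, and the lowest of the 18 was T cell vehicle mouse 1. The difference with T cells was 1.06 (95% interval 0.49 to 1.63), a 2.08-fold higher level with a limma adjusted p of 0.333, and without T cells it was 0.11 (-0.46 to 0.68).

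Usp18 removes ISG15 from proteins and blocks the interferon receptor. Usp18 read 9.04, 9.91, 10.13 and 9.43 in vehicle T cell mice and 10.90, 10.37, 10.98, 11.15 and 11.94 in ICA T cell mice, with no overlap. Usp18 in marrow-only mice was 10.03, 9.13, 11.14 and 9.60 under vehicle and 11.00, 9.72, 10.54, 10.02 and 10.17 under ICA, a wide and overlapping spread. Its range over the 18 mice, from 9.04 to 11.94, was the widest of the 38 genes. The difference with T cells was 1.44 (0.72 to 2.16, adjusted p = 0.256).

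Herc6 is the main ISG15 ligase of the mouse. Herc6 read 9.38, 9.88, 9.91 and 9.67 in vehicle and 10.53, 10.29, 10.68, 10.57 and 10.97 in ICA T cell mice, again without overlap. Herc6 in marrow-only mice read 10.11, 9.66, 10.63 and 9.74 under vehicle and 10.84, 9.65, 10.21, 10.13 and 10.36 under ICA, with overlap. The differences were 0.90 with T cells (adjusted p = 0.204) and 0.20 without. Ube2l6, the ISG15-conjugating enzyme, and Trim25, a ubiquitin and ISG15 ligase that supports the RNA sensor RIG-I, differed less, by 0.29 and 0.43 with T cells.

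The IFIT proteins bind foreign RNA, such as RNA whose cap lacks a methyl group, and block its translation. Of the 3 Ifit genes, Ifit1 and Ifit2 differed by over 1 on the log2 scale and Ifit3 by little. Ifit1 read 9.56, 10.37, 10.37 and 9.77 in vehicle and 11.23, 10.34, 11.09, 11.20 and 11.58 in ICA T cell mice. The lowest ICA mouse, mouse 2, lay just under the highest vehicle mice. Ifit1 in marrow-only mice read 10.38, 9.80, 11.28 and 9.91 under vehicle and 11.28, 9.64, 10.39, 10.34 and 10.08 under ICA, with group means of 10.34 and 10.35. The difference with T cells was 1.07 (0.43 to 1.71, adjusted p = 0.373).

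Ifit2 read 6.54, 7.496, 7.43 and 7.08 in vehicle and 7.73, 7.60, 8.14, 8.43 and 9.03 in ICA T cell mice, without overlap. Ifit2 in marrow-only mice read 7.05, 6.77, 7.90 and 6.95 under vehicle and 7.70, 7.01, 8.23, 7.21 and 7.70 under ICA, where mouse 3 was the highest rather than mouse 1. Its differences were 1.05 with T cells (adjusted p = 0.356) and 0.40 without.

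Ifit3, which lies next to Ifit2 on chromosome 19 and binds Ifit1 in its complex in other species, was nearly flat. Ifit3 read 7.81, 7.84, 7.67 and 7.88 in vehicle and 7.82, 7.76, 7.89, 8.02 and 8.13 in ICA T cell mice, and 8.04, 7.59, 7.64 and 7.57 and 8.01, 7.81, 7.70, 7.85 and 7.74 in the marrow-only groups. All 18 values lay within 0.56, and the groups overlapped in every comparison. The difference with T cells was 0.12 (-0.08 to 0.33), although its promoter carries the motif in 2 places. Ifit3b, a close copy of Ifit3 on a probe set of its own that was looked at after its values were seen, read 5.12 to 5.60 in vehicle and 6.12 to 7.0 in ICA T cell mice. Those ranges do not overlap, and its difference was 1.04 (adjusted p = 0.204). Probes of near-identical copies can share signal, so the level of either copy is uncertain.

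The OAS enzymes make 2′-5′ oligoadenylates when they meet double-stranded RNA, which activates RNase L to cut RNA. Oasl1 and Oasl2 are relatives, of which Oasl1 is known to restrain translation of the interferon regulator Irf7. The Oas family had a mean difference of 0.97 with T cells, next to that of the Mx family at 1.21. In 4 of the 5 Oas genes ICA T cell mice were higher without overlap (1.11% of all genes were). Of these, Oasl1 was barely apart, with the lowest ICA mouse at 10.079 and the highest vehicle mouse at 10.077. Oas2 read 7.91, 8.81, 8.65 and 8.22 in vehicle and 10.20, 9.30, 10.01, 10.31 and 10.77 in ICA T cell mice. Oas2 in marrow-only mice read 9.19, 8.35, 10.29 and 8.67 under vehicle and 10.69, 8.65, 8.86, 9.34 and 8.60 under ICA. The T cell groups are cleanly apart, while marrow-only vehicle mouse 3 and ICA mouse 1 lie among the ICA T cell mice. The difference of 1.72 (0.90 to 2.54, adjusted p = 0.204), or 3.29-fold, was the largest of the 38, against 0.10 (-0.72 to 0.93) without T cells.

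Oas1g read 9.80, 10.08, 10.22 and 9.70 in vehicle and 10.57, 10.55, 10.81, 10.84 and 11.03 in ICA T cell mice. Oas1g in marrow-only mice read 10.07, 9.67, 10.74 and 9.64 under vehicle and 10.78, 9.78, 10.14, 10.20 and 10.02 under ICA. The 5 ICA T cell mice formed the tightest group, with an SD of 0.20, and lay above the vehicle T cell mice. The difference was 0.81 (adjusted p = 0.284). Oas1g belongs to a cluster of similar Oas1 genes, so some of its signal may be that of its copies.

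Oas3 read 8.64, 9.30, 8.95 and 8.85 in vehicle and 9.81, 9.15, 9.79, 9.94 and 10.13 in ICA T cell mice, where ICA mouse 2 lay within the vehicle range. Oas3 in marrow-only mice read 9.24, 8.27, 9.97 and 8.75 under vehicle and 9.97, 9.09, 9.20, 9.44 and 8.83 under ICA. Its difference was 0.83 with T cells (adjusted p = 0.509) and 0.25 without.

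Oasl1 read 9.58, 10.05, 10.08 and 9.56 in vehicle and 10.36, 10.08, 10.47, 10.57 and 11.22 in ICA T cell mice, and 10.43, 9.66, 10.76 and 9.95 and 10.59, 10.01, 10.48, 10.17 and 10.25 in the marrow-only groups. For Oasl1 the lowest ICA T cell mouse and the highest vehicle mouse were equal to the decimals printed. Oasl2 read 10.22, 10.55, 10.56 and 10.30 in vehicle and 11.16, 10.72, 11.22, 11.18 and 11.53 in ICA T cell mice, and 10.72, 10.03, 11.29 and 10.29 and 11.33, 10.15, 10.50, 10.76 and 10.45 in the marrow-only groups. Both T cell groups were separate for it as well. The differences were 0.72 for Oasl1 (adjusted p = 0.392) and 0.75 for Oasl2 (adjusted p = 0.401).

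The Mx proteins are large GTPases that trap viral ribonucleoprotein. RefSeq lists both Mx1 and Mx2 as transcribed pseudogenes in its C57BL/6J reference, so these values are of RNA and say nothing of a protein. Mx1 read 5.88, 6.21, 6.01 and 5.89 in vehicle and 6.44, 6.10, 7.27, 7.13 and 8.36 in ICA T cell mice, the last of which was far above all others. Mx1 in marrow-only mice read 6.00, 6.24, 6.98 and 6.24 under vehicle and 6.54, 6.29, 6.52, 6.19 and 5.89 under ICA. ICA mouse 2 lay within the vehicle range. The difference with T cells was 1.06 (0.43 to 1.69, adjusted p = 0.366) and without T cells it was -0.08.

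Mx2 had the smallest p of the set. Mx2 read 6.55, 6.92, 6.51 and 6.99 in vehicle and 7.95, 7.32, 8.17, 8.39 and 8.63 in ICA T cell mice, with no overlap. Mx2 in marrow-only mice read 7.30, 6.93, 8.26 and 7.30 under vehicle and 8.38, 7.34, 7.77, 7.73 and 7.40 under ICA, and 3 of the 4 vehicle T cell mice lay below the lowest marrow-only mouse. The difference of ICA from vehicle with T cells was 1.35 (0.81 to 1.89), a 2.55-fold difference with a limma adjusted p of 0.125. Mx2 ranked 7 by p among all genes. Its adjusted p was 0.0284 with only the T cell groups in the model.

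The PARP members are ADP-ribosyltransferases. Parp9 works with the ubiquitin ligase Dtx3l, Parp14 modifies signalling proteins, and Parp12 represses translation. They had high levels and small differences, with a family mean of 10.21 ± 0.12 in vehicle and 10.56 ± 0.13 in ICA T cell mice. Parp9 read 9.32, 9.52, 9.57 and 9.44 in vehicle and 9.75, 9.67, 9.89, 9.79 and 9.98 in ICA T cell mice, without overlap, and 9.51, 9.52, 9.76 and 9.40 and 9.79, 9.28, 9.83, 9.59 and 9.77 in the marrow-only groups. Parp12 read 11.14, 11.42, 11.38 and 11.17 in vehicle and 11.61, 11.40, 11.61, 11.67 and 11.81 in ICA T cell mice, which overlap, and 11.27, 11.06, 11.73 and 11.19 and 11.81, 10.86, 11.35, 11.34 and 11.24 in the marrow-only groups. Parp14 read 9.78, 9.87, 10.08 and 9.84 in vehicle and 10.06, 10.14, 10.28, 10.33 and 10.47 in ICA T cell mice, which also overlap, and 9.98, 10.004, 10.50 and 9.84 and 10.23, 9.73, 10.47, 10.10 and 10.31 in the marrow-only groups. The differences with T cells were close to each other, at 0.35 for Parp9, 0.34 for Parp12 and 0.36 for Parp14. Their adjusted p values were 0.392, 0.663 and 0.58. The family spread between ICA T cell mice was small, from 10.40 to 10.76, as was its lead over the vehicle mice at 10.08 to 10.35.

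Among genes for nucleic acid recognition, editing and decay, Zbp1 had its lowest values in vehicle T cell mice. Zbp1 read 10.06, 10.27, 10.57 and 10.39 in vehicle and 10.61, 10.64, 10.95, 10.99 and 11.30 in ICA T cell mice. Zbp1 in marrow-only mice read 10.75, 10.69, 10.93 and 10.59 under vehicle and 11.01, 10.97, 11.27, 10.80 and 11.18 under ICA. The vehicle T cell mice were the lowest group, below every mouse of the other 3 groups, and the ICA marrow-only mice had the highest mean. ICA was higher than vehicle by 0.57 with T cells (adjusted p = 0.204), and T cells differed from marrow only by -0.42 under vehicle (adjusted p = 0.144) and -0.15 under ICA.

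Ddx60, a helicase that supports RIG-I signalling, averaged 9.41 ± 0.36 in vehicle and 10.45 ± 0.46 in ICA T cell mice, against 9.41 ± 0.83 and 9.22 ± 0.85 in marrow-only mice. Under ICA it differed by 1.22 between T cell and marrow-only mice (adjusted p = 0.0642), the largest of the 38 differences there, and by 1.04 between ICA and vehicle with T cells. Eif2ak2, the kinase PKR that halts translation, and Adar, which edits double-stranded RNA, differed by 0.37 and 0.24 with T cells. Znfx1, a helicase that senses RNA at mitochondria, differed by 0.49, and its groups did not overlap. Isg20, an exonuclease, differed by 0.18 with T cells and 0.20 without, and was the only member with an interaction term below 0 (-0.02).

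Rsad2 encodes viperin, which makes a chain-terminating nucleotide, and Cmpk2, its neighbour on chromosome 12, supplies a nucleotide kinase. Cmpk2 read 10.74, 9.59, 9.76, 9.93 and 9.48 in ICA marrow-only mice and 10.72, 10.49, 10.61, 10.77 and 11.05 in ICA T cell mice. Cmpk2 under vehicle read 10.16, 9.62, 10.88 and 9.86 in marrow-only and 10.14, 10.41, 10.39 and 9.98 in T cell mice. Under ICA only marrow-only mouse 1 reached into the T cell range. Cmpk2 rose with T cells under ICA by 0.83 (0.38 to 1.28, limma adjusted p = 0.0364), a 1.78-fold difference, and with ICA in T cell mice it differed by 0.50 (adjusted p = 0.701). Rsad2 averaged 8.05 ± 0.39 in vehicle and 9.23 ± 0.48 in ICA T cell mice, with no overlap and a difference of 1.18 (adjusted p = 0.373).

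Bst2, or tetherin, holds budding virus at the cell surface. Bst2 read 7.72, 7.96, 8.30 and 7.99 in vehicle and 8.35, 8.39, 9.11, 9.26 and 9.38 in ICA T cell mice, and 8.06, 7.91, 8.85 and 8.03 and 8.71, 8.41, 9.04, 7.99 and 8.24 in the marrow-only groups. The T cell groups were apart, but ICA T cell mice 1 and 2 exceeded the highest vehicle mouse only slightly. The difference was 0.90 with T cells (adjusted p = 0.333) and 0.27 without.

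The other restriction factors and regulators held the 2 further genes that passed the test under ICA. Xaf1, which opposes the apoptosis inhibitor XIAP, read 9.50, 8.89, 8.96, 8.92 and 8.65 in ICA marrow-only and 9.60, 9.28, 9.57, 9.66 and 10.14 in ICA T cell mice. Xaf1 under vehicle read 8.94, 8.63, 9.55 and 8.79 in marrow-only and 8.71, 9.003, 9.12 and 8.70 in T cell mice. Only marrow-only mice 3 (vehicle) and 1 (ICA) reached the range of the ICA T cell mice. Xaf1 rose with T cells under ICA by 0.67 (0.31 to 1.03, limma adjusted p = 0.0369), and differed by 0.77 between ICA and vehicle in T cell mice (adjusted p = 0.256).

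Samd9l, which restricts translation, moved over a narrow range. Samd9l read 7.67, 7.36, 7.52, 7.52 and 7.37 in ICA marrow-only and 7.80, 7.75, 7.87, 7.81 and 7.85 in ICA T cell mice. Samd9l under vehicle read 7.73, 7.35, 7.62 and 7.59 in marrow-only and 7.27, 7.52, 7.71 and 7.34 in T cell mice. It was the 1 member for which ICA T cell mice and ICA marrow-only mice did not overlap (1.16% of all genes did not, in the higher direction). Samd9l rose with T cells under ICA by 0.33 (0.14 to 0.52, adjusted p = 0.0478) and differed by 0.36 between ICA and vehicle with T cells, where the SD of the ICA mice was 0.05.

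Slfn5 belongs to the Schlafen family of growth and translation regulators. Slfn5 read 6.99, 7.30, 7.37 and 7.40 in vehicle and 7.91, 7.76, 8.29, 8.56 and 8.80 in ICA T cell mice, and 7.71, 7.05, 8.26 and 7.43 and 8.13, 7.68, 7.92, 7.94 and 7.76 in the marrow-only groups. The T cell groups did not overlap, and the vehicle T cell mice were the lowest group. The difference was 0.998 (0.57 to 1.43, adjusted p = 0.183), a 2-fold difference. Slfn8, with 1 protein-coding gene between it and Slfn5, differed by only 0.16 and spanned 0.48 over the 18 mice, the narrowest range of the 38 genes.

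Helz2, a helicase and nuclear receptor coactivator, read 8.91, 9.19, 9.30 and 9.04 in vehicle and 9.73, 9.51, 9.68, 9.84 and 10.09 in ICA T cell mice. Helz2 in marrow-only mice read 9.61, 9.12, 9.97 and 9.35 under vehicle and 9.97, 9.55, 9.65, 9.58 and 9.50 under ICA. The T cell groups were apart, and the vehicle T cell mice had the lowest mean of the 4 groups. The difference was 0.66 with T cells (adjusted p = 0.204) and 0.14 without. Rtp4, Ifi35, Epsti1, Tor3a and Lgals3bp differed by 0.70, 0.34, 0.39, 0.53 and 0.36 with T cells, and the antibody receptor and ligase Trim21 by 0.20. Of these 6 genes, Rtp4, Tor3a and Lgals3bp were higher without overlap in ICA T cell mice (1.11% of all genes were). Their gaps were small, with the lowest ICA mouse at 9.49, 8.49 and 10.90 and the highest vehicle mouse at 9.44, 8.46 and 10.87.

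The rest of the pathway was read from lists of further genes. Of 40 other interferon-stimulated genes, 31 were measured. In ICA against vehicle with T cells, limma called 0 of the 31, and 18 were higher at an unadjusted p under 0.05 (3.06% of all genes). Of the 31, 27 were above 0 (46.6% of all genes) and 13 were higher without overlap (1.11% of all genes), with a median of 0.45. Sp100, a nuclear body protein, was the only gene of that list called in a comparison. Sp100 rose with T cells under ICA by 0.52 (limma adjusted p = 0.0227), from 9.02 to 9.76 in marrow-only to 9.72 to 10.04 in T cell mice. Slfn4, a myeloid Schlafen gene that was singled out after its values were seen, differed by 1.79 with T cells (adjusted p = 0.204), from 7.51 to 8.54 to 8.65 to 11.49.

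The interferon genes themselves were read as well. Of 23 listed ligand genes 19 were measured, and their mean lay between 5.73 and 5.94 in every mouse. With T cells, ICA differed from vehicle by a median of -0.07 over them, limma called 0, and 2 were lower at an unadjusted p under 0.05 (3.83% of all genes). These were Ifna14 at -0.29 and the epithelial interferon Ifne at -0.24, and the lambda interferon Ifnl3 followed at 0.18 (limma adjusted p = 0.594, 0.705 and 0.76). Ifnb1, the beta interferon, averaged 4.43 ± 0.09 in vehicle and 4.42 ± 0.28 in ICA T cell mice. Interferon gamma, Ifng, averaged 6.42 ± 0.46 and 6.19 ± 0.43. Ifnb1 and Ifng were named for their role, after their values were seen. The table holds no detection call, so a difference confined to few cells may not have been detectable.

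Of the receptors and signalling genes, 13 of 15 were measured and 0 were called in ICA against vehicle with T cells, where 2 were higher at an unadjusted p under 0.05 (3.06% of all genes). The signalling genes Stat2 and Irf9 differed by 0.41 and 0.30 (adjusted p = 0.527 and 0.665). The feedback inhibitor Socs3 fell with T cells under ICA, with a difference of -1.38 on the log2 scale (adjusted p = 6.4e-04). Of 20 sensors and inducers 16 were measured and 0 were called with T cells, while 6 were higher and 1 was lower at an unadjusted p under 0.05 (3.06% and 3.83% of all genes). The RNA sensors Dhx58, which is on both lists, Ddx58 and Ifih1 differed by 1.09, 0.52 and 0.45, and the regulator Irf7 by 0.63. Like Stat2 and Irf9, these 4 genes were named for their role after their values were seen. The adaptor Myd88 was the 1 gene of that list called in any comparison, -0.26 between T cell and marrow-only mice under ICA (adjusted p = 0.0485).

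Genes that interferon gamma is known to induce, such as the Gbp and Irg GTPases and Cxcl9, were read as well. Of 22 listed, 19 were measured. Their median difference between ICA and vehicle was -0.14 with T cells and 0.28 without, limma called 0 in each, and at an unadjusted p under 0.05 there were 1, lower (3.83% of all genes), and 0. In the interaction, 17 of the 19 were below 0, with a median of -0.43, while 44.8% of all genes were above 0. In it 0 were called, with 1 lower at an unadjusted p under 0.05 (3.94% of all genes). Between T cell and marrow-only mice, 17 of the 19 were above 0 under vehicle (51.9% of all genes), with a median of 0.45. Limma called 0 of them there (1.47% of all genes were called), with a smallest adjusted p of 0.087. At an unadjusted p under 0.05, 7 were higher and 1 was lower. Of all genes 5.42% were lower, and the share higher is not given here. Under ICA 11 were above 0 (47.6% of all genes), with a median of 0.04. Marrow-only ICA mouse 1, the highest of its group in 29 of the 38 effector genes, had the lowest mean of the gamma-induced genes of its group, 8.49, 9.12, 9.86, 8.54 and 9.50 in mice 1 to 5. T cell ICA mouse 1 likewise had the lowest mean of its group, in 8.57, 9.24, 9.23, 9.01 and 9.19. The gamma-induced Nos2 fell with T cells under ICA, with a difference of -1.92 on the log2 scale (adjusted p = 6.0e-04).

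**Figure D4:**
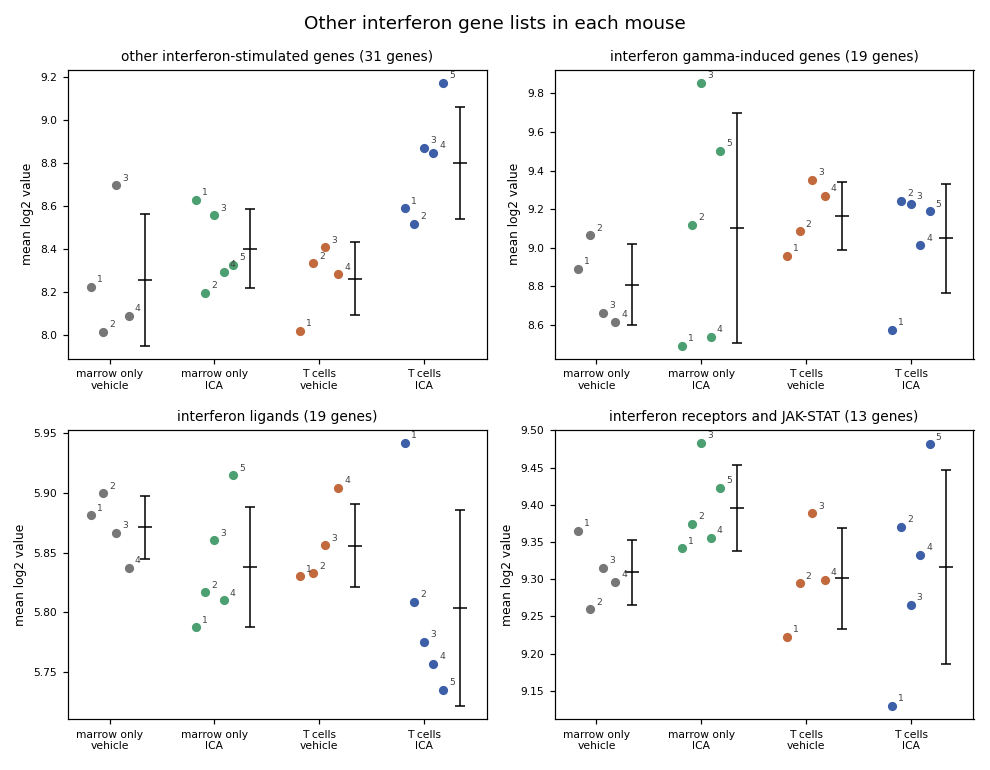
Mean log2 value of 4 further interferon gene lists in each mouse, by group, with dots numbered by mouse and bars for the group mean ± SD (4 or 5 mice). The other interferon-stimulated genes lie at 8.52 to 9.17 in T cell mice given ICA against 8.02 to 8.41 under vehicle, whereas the interferon gamma-induced genes overlap in all 4 groups.

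Marker genes of other cell types were read beside these results. Between ICA and vehicle in T cell mice, 8 of 9 markers of plasmacytoid dendritic cells, cells that make much interferon, averaged 7.83 to 8.19 under vehicle and 7.84 to 8.07 under ICA. The ninth is Bst2, a member of the set. The 9 measured of 10 T cell markers averaged 7.53 to 8.38 and 7.47 to 8.21, and the 10 measured of 11 macrophage markers 8.81 to 9.18 and 8.69 to 9.18. All 8 neutrophil markers were measured, at 6.21 to 7.12 and 5.95 to 6.68. Each of these pairs of ranges overlaps, limma called 0 genes of these 4 lists in that comparison, and no marker was listed at 0. Of the neutrophil markers, 7 of 8 were nonetheless below 0, with a mean difference of -0.48, while 46.6% of all genes were above 0. Of these markers, 3 were lower at an unadjusted p under 0.05 (3.83% of all genes). In the interaction all 8 neutrophil markers were below 0, while 44.8% of all genes were above 0. There too 3 were lower at an unadjusted p under 0.05 (3.94% of all genes). At that threshold the plasmacytoid, T cell and macrophage lists held 0 genes in either direction for ICA against vehicle with T cells. Their part in the differences of the interferon genes was not tested.

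Between T cell and marrow-only mice under ICA, where Cmpk2, Xaf1 and Samd9l rose, the markers of several cell types changed. All 7 smooth muscle markers, such as Myh11 and Tagln, were called higher (1.05% of all genes were), and their mean was 10.27 to 10.51 in marrow-only and 10.62 to 11.06 in T cell mice. Of the 9 T cell markers, Cd8a and Cd8b1 rose by 1.98 and 2.06 and Cd4 fell, with a difference of -0.71, and the list mean was 6.75 to 7.74 and 7.47 to 8.21. Of the 10 macrophage markers, Csf1r and Mrc1 rose by 0.63 and 0.87, with list means of 8.29 to 8.99 and 8.69 to 9.18. Of the 7 B and plasma cell markers 3 were called lower (2.07% of all genes were), namely Cd79a, Cd79b and Ms4a1, with list means of 6.45 to 7.49 and 5.70 to 6.87. Of the 6 Paneth cell markers, Mmp7 and Pla2g2a were called lower, with list means of 12.02 to 12.35 and 11.08 to 11.98. Of the 8 plasmacytoid markers Ly6d was called lower, and of the 13 enterocyte markers Sis was called higher. The part of these changes in the rise of Cmpk2, Xaf1 and Samd9l was not tested.

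A clock index moved with the groups. It subtracts the mean of 5 clock genes that peak at dawn from that of 7 that peak late in the day. It was 0.02 ± 0.25 in vehicle and -0.84 ± 0.15 in ICA T cell mice, without overlap, and -1.51 ± 0.25 and -1.78 ± 0.17 in marrow-only mice. The clock genes Per3 and Ciart fell with ICA in T cell mice, with differences of -0.91 and -0.85 on the log2 scale (limma adjusted p = 0.00155 and 0.00788). In marrow-only mice 1 of the 7 late-day clock genes was also called lower with ICA (limma adjusted p = 0.0132). It was the only 1 of the 22180 genes called there. The mean difference of the 7 genes between ICA and vehicle was -0.60 with T cells and -0.28 without. With the index as a covariate, the mean difference of the 38 genes between ICA and vehicle with T cells was 0.93, with 37 of 38 above 0, and limma called 0 of the 38 and 0 of all genes. With the same covariate the mean difference was -0.63 for T cells against marrow only under vehicle, against -0.18 without it. In both comparisons the groups do not overlap in the index. The values with the covariate therefore extend the model beyond index values that the groups share.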

How the data were processed

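The authors labelled total RNA of each ileum with a whole-transcript kit and read it on Affymetrix arrays, per the labels' protocols. The deposited table holds log2 values normalised by RMA, per the submitters' processing notes, which also list Partek and GenomeStudio. The log base was read from the range of the values, and versions, settings and filters were not given in the sources used here. Of 41345 probe sets, 23521 carry 1 gene symbol, 1814 several and 16010 none in the annotation used. A gene took its values from the probe set that carries its symbol alone (the one of highest mean where there were several), with no filter on low values, which gave 22180 genes. Array probes follow a reference strain, and the number of arrays limits the precision.

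Groups were compared in R 4.3.3 with limma 3.58.1, in 1 model of the 4 group means over 18 arrays, with a trend of the prior variance on the mean level (14 residual and 6.1 prior degrees of freedom). T cell mice were set against marrow-only mice within each treatment, ICA against vehicle within each graft, and the interaction was tested. Tests were two-sided, p was adjusted by Benjamini-Hochberg over all genes, and a gene was called at an adjusted p under 0.05. Intervals are 95% intervals of the model, not adjusted for the number of genes. The mean of a gene list in a mouse is given with no p. The model was tested on simulated data.

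The member genes and all lists were chosen with earlier results of these data known. Values in every mouse are given for the Ifit, Oas, Mx and Parp genes, Isg15 and the 8 further members with the smallest p in ICA against vehicle with T cells, and Cmpk2 was added after its values were seen. Of the other interferon lists the text names each gene called in a comparison or else the 3 with the smallest p, and says where it departs from this. Of the cell type and clock lists only some of the called genes are named. Their calls between T cell and marrow-only mice under vehicle are not given, among them 4 T cell and 4 macrophage markers called higher. Promoter windows come from RefSeq and were matched by symbol, and 9 members are not in that table. Alternatives tried were only the groups compared, leaving out each mouse, a block on mouse number, quantile normalization, centring on array medians, genes with a mean of at least 6, averaging a gene's probe sets, a prior without trend or made robust, array weights, the clock index as covariate and omission of the 3 arrays.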

Additional observations from a re-analysis of the deposited data

Results flagged for a closer look

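In 188 groups of mice, a gene or list mean in a group each, 4 held a mouse far from the others, with a gap to the next mouse of 0.835 to 0.88 of the group's range. Chance gives about 5% of groups. Isg15 was lowest in T cell vehicle mouse 1, at 6.27 with the next mouse at 6.94. Ifit3 was highest in marrow-only vehicle mouse 1, at 8.04 with the next at 7.64, although that mouse led its group in only 2 of the 38 genes. Znfx1 was highest in marrow-only ICA mouse 1, at 9.28 against 8.96. Bst2 was highest in marrow-only vehicle mouse 3, at 8.85 against 8.06, and these 2 mice led their groups in most of the 38 genes.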

How the results depend on the processing

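The mean difference of the 38 genes between ICA and vehicle with T cells, 0.67, stayed above 0 in every alternative run. It ran from 0.57 without T cell ICA mouse 5 to 0.93 with the clock index, in which these groups do not overlap. The interaction mean, 0.59, ran from 0.40 without marrow-only vehicle mouse 3 to 0.76 with the clock index. Without T cells the mean ran from -0.03 to 0.27 when single mice were left out. T cells against marrow only under vehicle ran from -0.30 to 0.01 when single mice were left out, and was -0.63 with the clock index. Under ICA it ran from 0.31 to 0.52, and was 0.13 with the clock index. Counts of called members were less stable. For ICA against vehicle with T cells the count of 0 was 2 with array weights (Mx2 and Slfn5, of 13 genes called in all). It was 9 with only the groups compared (of 49), 12 without the 3 arrays (of 39), and 0 to 1 when single mice were left out (of 1 to 9). For T cells against marrow only under ICA the count of 3 (of 693 genes called in all) was 0 without the variance trend (of 546). It was 1 with a robust prior (of 687), 8 with array weights (of 1049) and 0 with the clock index (of 0). It was 20 without the 3 arrays (of 1515) and 1 with only the groups compared (of 321). When single mice were left out it was 0 to 11 (of 378 to 1373). For T cells against marrow only under vehicle the count of 0 (of 327 genes called in all) was 1 with only the groups compared (of 824). With the mouse number as a block it was also 1 (Zbp1, of 382), the mean with T cells was 0.64, and no other count of members moved by over 1.5 times. Same-numbered mice of different groups deviated from their group means with correlations of -0.14 to 0.20 over 25 pairs. For different numbers these were -0.28 to 0.36 over 96 pairs. No pairing by number was thus seen, which does not exclude one. Of the single genes, Slfn8 reversed in ICA against vehicle with T cells, from 0.16 to -0.13 with the clock index. The causes of these changes were not tested. Fewer mice enter where mice were left out. The self-built lists, bulk tissue and 4 or 5 mice per group limit what a missed threshold can show.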

Other observations

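The effector set and the further list hold 5 measured Schlafen genes. In ICA against vehicle with T cells, Slfn4 differed by 1.79, Slfn5 by 0.998, Slfn1 by 0.20, Slfn2 by 0.65 and Slfn8 by 0.16 on the log2 scale, and limma called 0 of the 5, with Slfn2, Slfn4 and Slfn5 higher at an unadjusted p under 0.05 (3.06% of all genes). Rnf213, a large ubiquitin ligase, differed by 0.87, with 10.38 to 11.00 in vehicle and 11.26 to 12.02 in ICA T cell mice. Ifit1bl1 was lower in vehicle T cell mice, at 8.83 to 9.12, than in every other mouse, and differed by -1.04 between T cells and marrow only under vehicle (limma adjusted p = 0.0566). These genes were singled out after their values were seen.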
